A study of Homo sapiens with 4 samples.

Results

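MHC class I antigen presentation was examined through 9 genes in LASCPC-01 cells, a neuroendocrine prostate cancer (NEPC) cell line built with NMYC and activated AKT1, after treatment with PBS or with fluoxetine, an antidepressant that blocks serotonin reuptake. The genes were taken as a named list, and all 9 were present among the 16376 genes of the table: the heavy chains HLA-B and HLA-C, their light chain B2M, the peptide transporter subunits TAP1 and TAP2, the tapasin gene TAPBP, the transactivator NLRC5 and the immunoproteasome subunits PSMB8 and PSMB9. RNA was sequenced from 2 PBS libraries and 2 fluoxetine libraries of this 1 cell line, whose genotype the labels give as WT. The labels state day 3 for all 4 libraries and no dose, whereas the study's text describes 5 µM for 48 h, and the titles of both fluoxetine libraries carry the letters PP. The labels do not say whether the 2 libraries of a group came from separate cultures, so p-values measure only the spread between these libraries.

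Class I molecules carry peptides from inside the cell to its surface, where CD8 T cells inspect them. Peptides are cut by the proteasome, in which PSMB8 and PSMB9 replace constitutive subunits, and are pumped into the endoplasmic reticulum by TAP1 and TAP2. There tapasin bridges the transporter to the heavy chain and B2M, and a loaded complex leaves for the surface. NLRC5 is recruited to the heavy chain, B2M, TAP1 and PSMB9 promoters by the RFX and NF-Y factors, and interferon raises nearly every step of the pathway. Many neuroendocrine tumours are known for low surface class I, which was not measured here. The comparison asks whether fluoxetine moved the transcripts of the pathway in a neuroendocrine prostate line.

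The control sequences that these genes share are shown first, since they are the reason the set is often read as 1 unit. RefSeq promoter windows of 300 bases on GRCh38.p14, from 250 before to 50 after each start, matched 8 of the 9 genes, with no entry for NLRC5. The sequences below run 5′ to 3′ on the strand of the gene and end before its RefSeq start. Capitals mark Y boxes (CCAAT or its complement, read by NF-Y), the short site TGACG of CREB and ATF factors, the interferon-stimulated response element (TTTC, any 2 bases, TTTC, on either strand) and NF-kB sites (GGG, any 2 bases, TTTCC, on either strand), and copies of the interferon element in B2M, TAP1 and TAPBP overlap each other.
HLA-B, chr6:31357220-31357299, minus strand: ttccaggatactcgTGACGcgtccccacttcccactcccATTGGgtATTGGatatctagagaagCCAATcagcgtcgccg
HLA-C, chr6:31272133-31272212, minus strand: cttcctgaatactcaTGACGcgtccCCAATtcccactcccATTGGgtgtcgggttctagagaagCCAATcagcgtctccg
B2M, chr15:44711367-44711476, plus strand: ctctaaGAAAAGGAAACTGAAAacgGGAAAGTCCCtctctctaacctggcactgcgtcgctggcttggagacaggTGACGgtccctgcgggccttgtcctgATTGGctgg
TAP1, chr6:32853816-32853845, minus strand: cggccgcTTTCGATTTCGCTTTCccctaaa
TAP2, chr6:32838778-32838807, minus strand: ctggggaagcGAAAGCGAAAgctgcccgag
TAPBP, chr6:33314079-33314108, minus strand: ccctttggagGAAAGTGAAAGTGAAAggag

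The HLA-B and HLA-C stretches had the same layout, a TGACG followed by Y boxes on both strands, and the 250 bases before the starts of these genes were 89% identical over 254 aligned columns. A TGACG lay in the windows of 6 of the 8 genes, against 24.6% of all 35116 promoter windows of this length, and a Y box in 5 of the 8, against 34.6%. The interferon element was in the windows of B2M, TAP1, TAP2, TAPBP and PSMB8, 5 of the 8 genes, and in 3.57% of all windows. An NF-kB match was found for B2M, TAP1 and TAPBP, 3 of the 8 genes, and for 1.91% of all windows. These matches describe letters only and say nothing of binding in these cells.

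In GENCODE 29 on GRCh38, 7 of the 9 genes lie on chromosome 6. HLA-C (31268749 to 31272130) and HLA-B (31269491 to 31357188, a span that overlaps that of HLA-C in part) are neighbours. TAP2, PSMB8, PSMB9 and TAP1 lie within 37.8 kilobases, from 32821833 to 32859585, and TAPBP lies beyond them, from 33299694 to 33314387. The RefSeq starts of TAP1 and PSMB9 are 488 bases apart and point away from each other. The annotated span of PSMB9 overlaps those of TAP1 and PSMB8 on the opposite strand. B2M lies on chromosome 15, from 44711487 to 44718877, and NLRC5 on chromosome 16, from 56989485 to 57083531.

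The authors deposited FPKM, the reads on a gene scaled to the length of the gene and to the number of reads in the library. Read numbers recovered from these values gave depths of 32873603 and 34756748 reads for PBS and 34806710 and 34831389 for fluoxetine, and all 9 genes had their reads recovered, with at least 128 in each library. Counts of the replicates were further apart than sampling alone gives (8.60 chi-square units per degree of freedom in PBS, 10.5 in fluoxetine), and all 4 libraries were kept as separate samples. Gene length leaned differently from library to library: across 12575 genes, which are not independent, a gene's departure from its 4-library mean had a Pearson r with log2 length of -0.28 for the first fluoxetine library, 0.19 for the second PBS library, and 0.06 and 0.05 for the others. Short genes therefore tended to read high in the former library and low in the latter, and the 9 genes run from 968 bases (B2M) to 8013 bases (NLRC5).

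Neuroendocrine markers were present in part, with NCAM1 at 44.3 to 52.0 FPKM and INSM1 at 21.7 to 24.2 FPKM, but SYP (synaptophysin) at only 0.142 to 0.629 FPKM and CHGA and NEUROD1 at or below 0.0886 and 0.0923 FPKM. MYCN, which was introduced to make the line, was at 323 to 387 FPKM. Of the 8 markers, 6 were tested, and 5 of them were below 0 in log2 difference, as were 56.5% of all genes tested. Both fluoxetine libraries lay under both PBS libraries for 4 of the 6, a pattern met by 24.8% of the genes tested. Of the 9 leukocyte markers, 8 were measured, CD53 was listed at 0 in every library, and the pan-leukocyte gene PTPRC, CD3E, CD79A, CD14 and LYZ stayed at or below 0.154 FPKM. LAPTM5, at 7.93 to 10.8 FPKM, made up nearly all of the summed leukocyte level of 8.86 to 11.5 FPKM, in which the groups overlapped. FCER1G, which with LAPTM5 made up the 2 leukocyte markers tested, was at 0.361 and 0.195 FPKM with PBS and 0.779 and 0.730 FPKM with fluoxetine (adjusted p = 0.220, limma). The summed level of the 7 stromal and endothelial markers was 2.06 to 3.33 FPKM, of which COL1A1 gave 1.83 to 2.75 FPKM and DCN and VWF at most 0.212 and 0.147 FPKM. Of the 5 luminal prostate markers, TMPRSS2 was at 13.5 to 14.8 FPKM and KLK3 at 0.256 FPKM or less. Class II genes were close to absent, since CD74 reached 0.0168 FPKM and the class II transactivator CIITA 0.00778 FPKM at most, with HLA-DMA at 1.34 to 2.71 FPKM. No gene of these marker lists had an adjusted p under 0.05 from limma, and ENO2, a neuronal enolase, was at 2.76 and 3.10 FPKM with PBS and 2.07 and 2.10 FPKM with fluoxetine (adjusted p = 0.373).

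The class I pathway was clearly transcribed under PBS and stood at nearly the same level under fluoxetine. B2M was the most abundant of the 9 genes, in the 99.6th percentile of all genes by mean FPKM, followed by HLA-B and HLA-C, whose ranges overlapped, then by PSMB8, TAP1, TAP2, TAPBP, NLRC5 and PSMB9. From PSMB8 downwards, each neighbour in that order had ranges over the 4 libraries that did not overlap. None of the 9 genes passed the test, limma on log2(FPKM + 0.1) with Benjamini-Hochberg adjustment at 0.05, against 0.237% of the 12663 genes tested, 0.0237% higher and 0.213% lower in fluoxetine. At an unadjusted p under 0.05 the count was also 0 of 9, where 8.51% of all genes had one. By limma voom on the recovered reads it was 0 of 9 at both thresholds. Of the 14026 genes in that test, 51 were called and 1492 had an unadjusted p under 0.05.

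**Figure D1:**
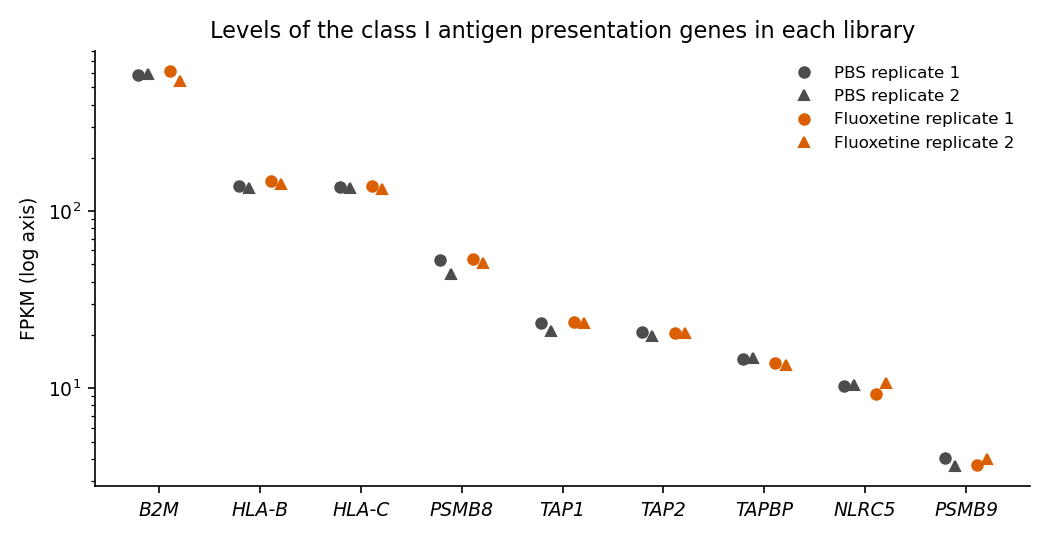
FPKM (log axis) of the 9 genes, ordered by mean level, in PBS (grey) and fluoxetine (orange) libraries, with circles for replicate 1 and triangles for replicate 2. Levels span from B2M at 542 to 622 FPKM down to PSMB9 at 3.62 to 4.04 FPKM, while the points of a gene lie close together whatever the treatment.

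HLA-B, a classical heavy chain, measured 138.4 and 134.5 FPKM under PBS, and 147.5 and 141.5 FPKM under fluoxetine. Fluoxetine replicates both exceeded the PBS replicates, a pattern met by 16.7% of the genes tested. On the log2 scale the groups were 0.08 apart, with a standard error of 0.07 and an adjusted p of 0.732 by limma, and the 95% interval of the change ran from -4.99% to 18.0%. Removing the trend on gene length, an alternative chosen after seeing the data, left a log2 difference of 0.03.

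HLA-C, the other heavy chain of the set, had 136.4 and 135.0 FPKM with PBS and 138.3 and 132.7 FPKM with fluoxetine. The fluoxetine libraries enclosed the PBS libraries, and the log2 difference was -0.0026, with 0.07 as its standard error (adjusted p = 0.996, limma). The interval ran from -10.3% to 11.1%. The ratio of HLA-B to HLA-C was 1.01 and 0.996 with PBS and 1.07 in both fluoxetine libraries. For a single value such as this ratio, a two-sided exact permutation test of 2 libraries against 2 cannot go below p = 0.333. In GENCODE 29, no stretch of 150 bases, the read length, of the HLA-B transcript nearest in length was identical to HLA-C. Of stretches of 50 bases, 2% were, so these reference transcripts are separable from each other at read length. Other HLA genes were not compared. The annotated spans of HLA-B and HLA-C overlap on the same strand, and how reads there were assigned is not given in the sources used here. The alleles of the line were not analysed here, and how they map to the reference was not tested.

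B2M, the invariant light chain, had 584.7 and 592.1 FPKM with PBS and 622 and 542 FPKM with fluoxetine, backed by 18267 to 20965 reads a library. The fluoxetine libraries were the highest and the lowest of the 4, and the standard deviation was 56.9 FPKM for fluoxetine and 5.22 FPKM for PBS (n = 2 each). The log2 difference was -0.02, with 0.09 as its standard error (adjusted p = 0.968, limma), and its interval ran from -14.1% to 13.3%. B2M is the shortest of the 9 genes, and once the length trend was removed the log2 difference was -0.11 (adjusted p = 0.686, limma). B2M stood at 2.13 and 2.20 times the summed FPKM of HLA-B and HLA-C with PBS and at 2.18 and 1.98 times with fluoxetine, ranges that overlap.

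TAP1, which pairs with TAP2 to form the peptide pump, had 23.5 and 21.1 FPKM with PBS and 23.6 and 23.4 FPKM with fluoxetine, which put the groups 0.08 apart on the log2 scale, with 0.08 as the standard error (adjusted p = 0.776, limma). PBS replicate 2 was the low library, and without it the log2 difference was -0.00054, whereas without PBS replicate 1 it was 0.16. TAP2 had 20.8 and 19.7 FPKM with PBS and 20.4 and 20.5 FPKM with fluoxetine, so that the fluoxetine libraries lay between the PBS libraries. For TAP2 the log2 difference was 0.02, with 0.08 as its standard error (adjusted p = 0.964, limma). The 95% intervals were -6.54% to 19.2% for TAP1 and -9.86% to 13.7% for TAP2. The transporter subunits were close to equal in every library, with TAP1 at 1.07 to 1.15 times the FPKM of TAP2.

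TAPBP, which encodes tapasin, had 14.5 and 14.8 FPKM with PBS and 13.9 and 13.5 FPKM with fluoxetine. It was the 1 gene of the set whose fluoxetine replicates both lay under the PBS replicates, a pattern met by 24.8% of the genes tested. The log2 difference of -0.10 came with a standard error of 0.08 and an adjusted p of 0.718 by limma, and its interval ran from -17.2% to 5.50%.

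NLRC5, the class I transactivator, had 10.3 and 10.5 FPKM with PBS and 9.24 and 10.7 FPKM with fluoxetine, the fluoxetine libraries being the lowest and the highest of the 4. The log2 difference was -0.06, with 0.10 as its standard error (adjusted p = 0.853, limma), and the interval ran from -17.2% to 10.5%. NLRC5 is the longest of the 9 genes and was lowest in fluoxetine replicate 1, the library in which long genes read low. After the length trend was removed, the log2 difference was 0.02. The part of gene length in the NLRC5 values was not tested.

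**Figure D2:**
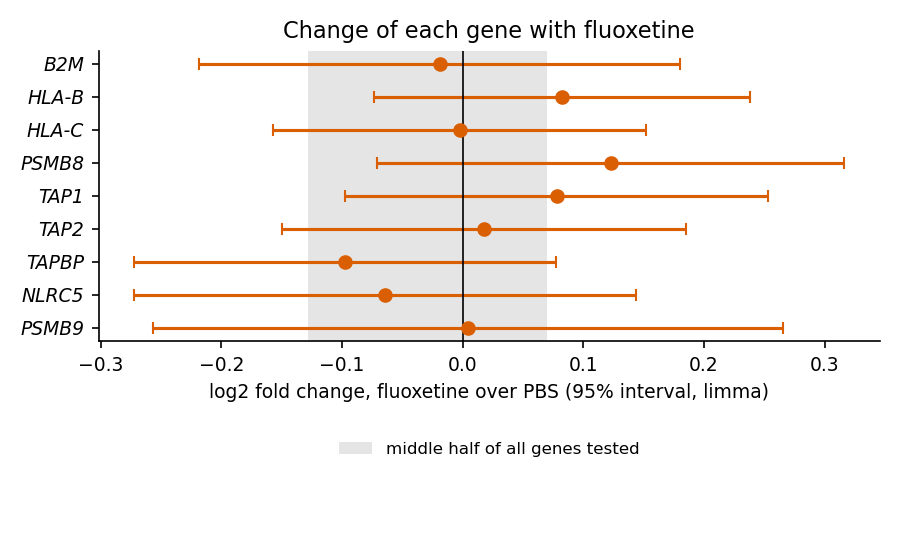
Log2 fold change of each of the 9 genes, fluoxetine over PBS, from limma with its 95% interval (x axis), with the genes ordered by mean FPKM. The grey band spans the lower to the upper quartile of all 12663 genes tested, from -0.13 to 0.07, and all 9 intervals cross 0.

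PSMB8, the immunoproteasome partner of PSMB5, had 52.8 and 44.0 FPKM with PBS and 53.8 and 51.2 FPKM with fluoxetine. PBS replicate 2 was lowest, PBS replicate 1 lay between the fluoxetine libraries, and the log2 difference of 0.12 was the largest of the set, with 0.09 as its standard error (adjusted p = 0.679, limma). Its interval, -4.80% to 24.5%, was also the widest on the upper side. Leaving out PBS replicate 2 gave a log2 difference of -0.009, and leaving out PBS replicate 1 gave 0.25 (unadjusted p = 0.0209 and adjusted p = 0.496 by limma), with a 95% interval from 0.05 to 0.46. Removing the length trend gave 0.07.

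PSMB9, the immunoproteasome partner of PSMB6, was the least abundant of the 9 genes, with 4.04 and 3.62 FPKM under PBS and 3.67 and 4.01 FPKM under fluoxetine, from 128 to 142 reads a library. The fluoxetine libraries lay inside the range of the PBS libraries. The log2 difference was 0.0047, with 0.12 as its standard error (adjusted p = 0.996, limma), and the interval ran from -16.3% to 20.2%. PSMB9 is counted on a span that GENCODE 29 shares with TAP1 and PSMB8 on the other strand, and how reads in the shared parts were assigned is not given in the sources used here.

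Across the set, 5 genes had a log2 fold change above 0 and 4 below 0, between -0.10 and 0.12. The median was 0.0047, beside -0.02 over all 12663 genes tested. Each of the 9 intervals, taken on its own, held 0 and lay within a 1.5-fold change in either direction, from -17.2% to 24.5% at the widest. Differences inside these bounds were not told apart from 0 for these genes. Fluoxetine replicate 1 was the highest of the 4 libraries for 5 of the 9 genes and PBS replicate 2 the lowest for 5 of the 9. The part of gene length in this order was not tested.

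The proteasome offers a comparison within each library, because each immuno subunit takes the place of a constitutive one. PSMB8 stood at 0.638 and 0.671 times the FPKM of PSMB5 with PBS and at 0.603 times in both fluoxetine libraries. PSMB10 stood at 0.403 and 0.413 times PSMB7 with PBS and at 0.449 and 0.464 times with fluoxetine. PSMB9 was far scarcer, at 0.0371 and 0.0375 times PSMB6 with PBS and at 0.0305 and 0.0350 times with fluoxetine. In all 3 pairs the groups did not overlap, with PSMB8 and PSMB9 lower and PSMB10 higher against their partners in fluoxetine. For single genes, such separation was met by 16.7% (higher) and 24.8% (lower) of those tested, and no such ratio can pass an exact permutation test at this size. The level of PSMB8 exceeded that of PSMB9 by 12.1 to 14.6 times.

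**Figure D3:**
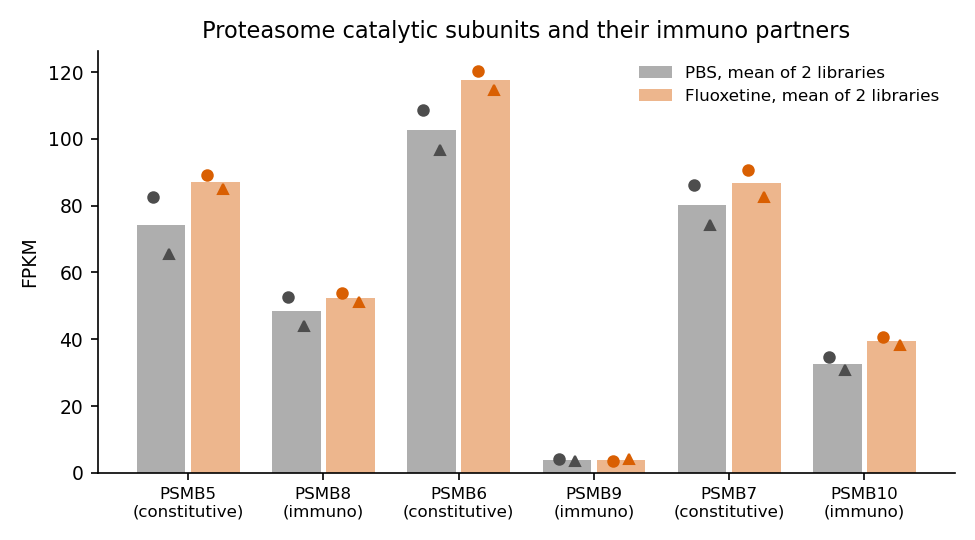
FPKM of the constitutive catalytic subunits PSMB5, PSMB6 and PSMB7, each beside the immuno subunit that replaces it (bars, mean of 2 libraries; circles and triangles, replicates 1 and 2). PSMB8 and PSMB10 reach a sizeable share of their partners, whereas PSMB9 lies at 3.62 to 4.04 FPKM beside 96.6 to 120.4 FPKM for PSMB6.

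None of the partners of PSMB8 and PSMB9 passed the test. All 6 genes of that list, PSMB10, the activator subunits PSME1 and PSME2, and PSMB5, PSMB6 and PSMB7, had a log2 fold change above 0, as did 5507 of the 12663 genes tested, with a median of 0.22 beside -0.02 over all genes. By limma, 4 of the 6 had an unadjusted p under 0.05, against 8.51% of all genes, and none an adjusted one. PSMB10 had 34.7 and 30.7 FPKM with PBS and 40.8 and 38.4 FPKM with fluoxetine, 0.28 apart on the log2 scale, with 0.08 as the standard error (adjusted p = 0.381, limma). PSME2 had 48.7 and 43.7 FPKM with PBS and 54.2 and 54.9 FPKM with fluoxetine, 0.24 apart on the log2 scale (adjusted p = 0.427, limma). The log2 differences were 0.24 for PSMB5, 0.20 for PSMB6 and 0.12 for PSMB7, with adjusted p of 0.541, 0.538 and 0.686 by limma. These are short genes, of 793 to 1243 bases. With the length trend removed, the median of the list was 0.12 and PSME1 was at -0.04. By limma, 1 of the 6 then had an unadjusted p under 0.05, as did 996 of 12575 genes. By limma voom on the recovered reads, 4 of the 6 had one, as did 1492 of 14026 genes. No adjusted p was under 0.05 in either alternative, and the part of gene length was not tested.

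The loading chaperones and non-classical chains likewise stayed within the test. Of 10 genes, 9 were tested, 3 were above 0 and 6 below 0, and the median log2 fold change was -0.06. CALR, the calreticulin that holds the heavy chain during loading, had 547 and 578 FPKM with PBS and 623 and 583 FPKM with fluoxetine, 0.10 apart on the log2 scale (adjusted p = 0.728, limma). CANX (calnexin) was at 214 and 220 FPKM with PBS and 207 and 209 FPKM with fluoxetine, and ERAP1, which trims peptides to length, at 2.87 and 2.88 FPKM with PBS and 2.61 and 2.47 FPKM with fluoxetine. The adjusted p was 0.799 for CANX and 0.682 for ERAP1. PDIA3, a thiol oxidoreductase of the loading complex, was at 142.2 to 158.4 FPKM with overlapping groups. TAPBPL, a tapasin relative that edits peptides, had 3.27 and 2.99 FPKM with PBS and 2.93 and 2.67 FPKM with fluoxetine (adjusted p = 0.719, limma). HLA-E, the ligand of NKG2A, was at 22.4 to 23.6 FPKM in all libraries, and HLA-G, at 0.0721 FPKM or less, was the gene not tested.

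Transcription factors that act on class I promoters were present, among them readers of the printed elements. Sites of the RFX factors were not searched for and are not marked in the sequences. RFX5 and RFXANK, of the RFX complex, were at 27.9 to 30.1 FPKM and at 34.7 to 37.5 FPKM, and RELA, the NF-kB subunit, at 40.6 to 46.0 FPKM. Of the 13 factors tested, 6 were above 0 and 7 below 0, with a median log2 fold change of -0.01 and none with an adjusted p under 0.05 from limma. IRF1, an activator of class I genes through the interferon element, was the furthest from 0, with 4.25 and 4.84 FPKM under PBS and 3.49 and 3.17 FPKM under fluoxetine. The log2 difference for IRF1 was -0.44, with 0.12 as its standard error (adjusted p = 0.329 and unadjusted p = 0.00378 by limma), and both fluoxetine libraries were the lower ones. IRF2 was at 2.78 to 3.53 FPKM, and NFYA, a subunit of NF-Y, at 10.1 and 10.6 FPKM with PBS and 10.9 and 11.8 FPKM with fluoxetine (adjusted p = 0.680, limma).

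Interferon receptors and kinases were expressed too, and none of the 9 passed the test, with a median log2 fold change of -0.04. STAT2 and IRF9, which belong to the type I interferon response complex, were at 7.43 to 8.87 FPKM and 3.78 to 5.25 FPKM. JAK1 was at 22.5 to 24.5 FPKM, TYK2 at 17.0 to 18.0 FPKM and IFNGR2 at 11.5 to 12.9 FPKM. IFNAR2, a chain of the type I receptor, had 5.31 and 6.05 FPKM with PBS and 4.50 and 5.24 FPKM with fluoxetine (log2 difference -0.22, adjusted p = 0.613 by limma). Many interferon-stimulated genes were near 0 beside these. Of 25 such genes, 22 were measured and 15 tested, and the 7 below a mean of 0.1 FPKM were IFIT3, MX1, OAS2, OAS3, BST2, GBP1 and GBP2. ISG15 was the most abundant of the list, with 96.2 and 79.4 FPKM under PBS and 104.3 and 97.5 FPKM under fluoxetine (log2 difference 0.21, adjusted p = 0.558 by limma).

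Among the interferon-stimulated genes, 7 were above 0 and 8 below 0, with a median log2 fold change of -0.05 and no adjusted p under 0.05 from limma. IFI6 had 1.63 and 0.926 FPKM with PBS and 1.81 and 2.29 FPKM with fluoxetine, 0.68 apart on the log2 scale with 0.23 as the standard error (adjusted p = 0.478, limma). SAMD9 went the other way, with 1.43 and 1.79 FPKM under PBS and 1.17 and 1.19 FPKM under fluoxetine, a log2 difference of -0.41 (adjusted p = 0.552, limma), and TRIM22 had a log2 difference of -0.40 (adjusted p = 0.598). The list ran from -1.23 for IFITM1, counted from 8 reads or fewer a library, to 0.68 for IFI6, where the 9 class I genes ran from -0.10 to 0.12. IFITM3 was at 35.8 to 40.9 FPKM and ISG20 at 9.18 to 9.90 FPKM, with overlapping groups in both.

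**Figure D4:**
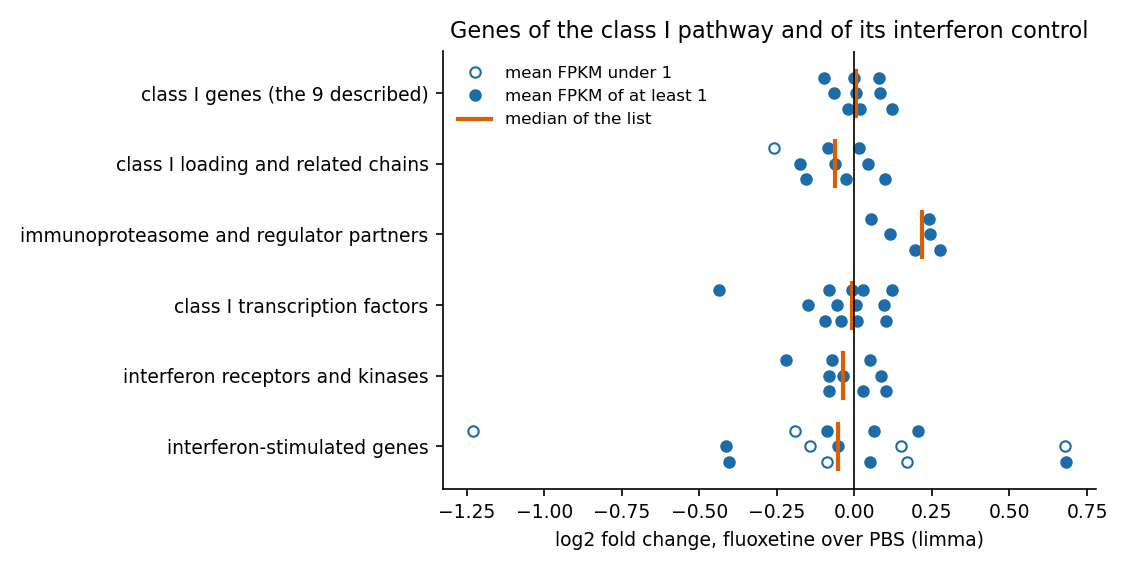
Log2 fold change, fluoxetine over PBS, of each tested gene (x axis) in the set of 9 and in 5 related lists, with filled points for a mean FPKM of at least 1, open points for lower means and orange bars for list medians. The set of 9 sits around 0 from -0.10 to 0.12, and 4 of the 6 partners of the immunoproteasome lie to its right, with a list median of 0.22.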

How the data were processed

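RNA-seq of 4 LASCPC-01 libraries (2 PBS, 2 fluoxetine, grouped by the treatment label) was analysed from FPKM deposited by the authors, 1 value per gene and library. The submitters' processing notes name fastp, HISAT2, HTSeq and GRCh38. Versions, annotation and strand setting are not given in the sources used here. The labels name a stranded TruSeq kit and the study's methods a VAHTS kit. All 4 columns matched 1 sample each.

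Whole reads were solved from the ratios of the FPKM between libraries (tolerance 0.004 of a read, up to 30000 reads), and the depth was the whole number that made most of 120 gene lengths whole (72 of them). This gave reads for 93.7% of the 16080 genes above 0. On simulated FPKM, with the true depth ratios supplied, the reads were right up to a common factor for 598 of 600 genes. The search for the depths was not simulated. Counting intervals were not used, since the spread between libraries was larger.

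Groups were compared with limma 3.58.1 under R 4.3.3, using lmFit and trended eBayes. Values entered as log2(FPKM + 0.1). Only the 12663 genes averaging 0.1 FPKM or more over the 4 libraries were tested, and p-values were adjusted over all of these by the Benjamini-Hochberg method. A fold change on this scale understates that of low genes. On data simulated from these 12663 genes, 200 of 200 genes changed by a log2 of 1 were called, with 22 others. The test was repeated with a pseudocount of 1 or 0.01, without the filter, with a filter at 1 FPKM, on TPM, with quantile normalization, without the variance trend, with robust moderation, with the replicate block, without each library in turn and, chosen after seeing the data, voom on recovered reads and removal of the gene length trend (lowess, span 0.3).

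The 9 genes and the other lists were chosen with earlier results of these data known. All 9 were named. From each other list, genes with an adjusted p under 0.05, up to 3 with the largest fold change at a mean of at least 1 FPKM and up to 3 with the highest mean were named, and others named (HLA-E, HLA-G, PSME1, INSM1, SYP, IFITM1 and genes near 0) were picked after their values were seen. Some genes that the rule names are not reported here. Gene locations are from GENCODE 29 and promoters from RefSeq. Python 3.11.15, numpy 2.4.6, pandas 2.3.3 and matplotlib 3.10.9 were used.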

Additional observations from a re-analysis of the deposited data

How the results depend on the processing

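None of the 9 class I genes had an adjusted p under 0.05 in any of the 15 alternatives, and the lowest was 0.496, for PSMB8 without PBS replicate 1. The median log2 difference of the set, 0.0047, became -0.0425 after rescaling to TPM, where the median over all genes was -0.07, and ranged from -0.010 to 0.0575 with 1 library left out. Of 135 single-gene values, 122 kept their sign and 13 did not: TAP2 (-0.0300) and PSMB9 (-0.0425) on TPM, NLRC5 (0.0189) and PSMB9 (-0.0839) with the gene length trend removed, and 9 with 1 library left out. Those ranges were -0.0325 to 0.0274 for HLA-C, -0.119 to 0.0807 for B2M, -0.00054 to 0.157 for TAP1, -0.0222 to 0.0575 for TAP2, -0.167 to 0.0385 for NLRC5, -0.0090 to 0.254 for PSMB8 and -0.0718 to 0.0813 for PSMB9. The lone library of a group was then taken to vary like the other group, and the causes were not tested.

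Over all genes, 30 were called as reported, 0 without the filter on low values (1069 at an unadjusted p under 0.05), 0 without the variance trend (933), 16 with quantile normalization, 51 with voom on recovered reads, and 2 to 12 with 1 library left out. With the replicate number as a block, 64 were called, none of them among the 9 class I genes. Libraries of the same number shared little of their departure from the group mean (r = 0.035), so the numbers were not taken as pairs.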
